A study of Gallus gallus with 6 samples.

Results

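HLF, TEF, NFIL3, BHLHE40 and BHLHE41 are transcription factors that carry the rhythm of the circadian clock to its output genes. They were taken from the expression table of chicken ileum by gene symbol: 5 genes on 6 of 17623 rows, since NFIL3 has an Ensembl row and an assembled locus, MSTRG.9401. All 6 rows passed the filter on low counts, as did 13807 rows in all. RNA was sequenced from the ileum of Taiping chickens labelled as male and aged 2 months. FOS birds drank water with 1 mL of fructooligosaccharide per litre, a fructose chain that gut bacteria ferment, and ate a corn and soybean basal diet. CT birds, the controls, ate the same basal diet. Each group had 3 libraries, and the letters FOS always mean the supplement or the birds given it, not the immediate early gene.

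The clock runs on a loop in which CLOCK or NPAS2, paired with ARNTL (BMAL1), activates genes through E-box elements, and PER and CRY proteins shut this activity off. HLF and TEF belong to the PAR bZIP family, whose members are switched on by the loop and activate genes through D-box elements; chicken TEF was first described as VBP, a factor that binds the vitellogenin promoter. NFIL3, also a bZIP protein, binds the same D-boxes and represses them, so both kinds of factor compete for shared sites. BHLHE40 and BHLHE41 (DEC1 and DEC2) are helix-loop-helix repressors that occupy E-boxes and restrain CLOCK and ARNTL. In mouse intestinal epithelium NFIL3 links the clock to lipid uptake, and the PAR bZIP factors govern genes of drug metabolism in mouse liver and kidney.

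Total deposited counts were 14668289 to 17793586 in FOS libraries and 16056240 to 18106651 in CT libraries. HINTW, a gene of the W chromosome that males lack, stood at 111 to 158 CPM (the library-size-scaled count unit used below, with TMM factors) in 4 libraries. In FOS 2 and CT 2 it stood at 0.0696 and 0.173 CPM, so 4 of 6 libraries went against the male label, 2 in each group. Markers of ileal epithelium were present in both groups: the bile acid carrier FABP6 averaged 2195 ± 1578 CPM in FOS and 5145 ± 614 CPM in CT, and the microvillus protein VIL1 averaged 1078 ± 326 CPM in FOS and 818 ± 46.9 CPM in CT (SD, n = 3 each). Whether each library is a separate bird is not in the labels. FOS 2 and CT 2 differed in HINTW from the rest of their groups, so the libraries of a group were not all from the same bird. The tests below rest on the spread between libraries, which may in part be technical.

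HLF, TEF and BHLHE40 were lower in every FOS library than in any CT library, NFIL3 was higher in 2 of 3 FOS libraries than in any CT library, and BHLHE41 overlapped between groups. With edgeR's quasi-likelihood test and adjustment over all 13807 rows, 0 of the 6 rows passed the threshold of 0.05, against 0.0217% of all rows. At an unadjusted p under 0.05 there were 3 of 6, HLF, TEF and BHLHE40, against 9.42% of all rows. All 3 were lower in FOS, and 4.27% of all rows were lower and 5.14% higher at that level. With the replicate number as a block 2 of 6 were left, HLF and BHLHE40. TEF also left this count without FOS 1, FOS 2, CT 1 or CT 2, and BHLHE40 without FOS 3 or CT 2. With W-linked transcripts as a covariate TEF left it too (edgeR unadjusted p = 0.0568). In the libraries with W-linked transcripts alone TEF and BHLHE40 left it (edgeR unadjusted p = 0.287 and 0.0922). HLF left it with the enterocyte covariate described below (edgeR unadjusted p = 0.0669). TEF left it with that covariate and with the smooth muscle one. NFIL3 entered it, higher in FOS, without FOS 1 and with the enterocyte covariate (edgeR unadjusted p = 0.00505 and 0.0278). DESeq2 called 1 of the 6, HLF, lower in FOS. It called 1.1% of the rows it tested, 0.325% lower and 0.777% higher, and limma-voom called 0 of the 6, against 0.00724% of rows. The groups did not overlap in 3 of the 6, all lower in FOS, against 16.4% of all rows, of which 7.84% were lower and 8.58% higher. The log2 fold change was below 0 in 4 of the 6 and in 48.9% of all rows. The genes were chosen with earlier results known, so these counts are a description.

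**Figure D1:**
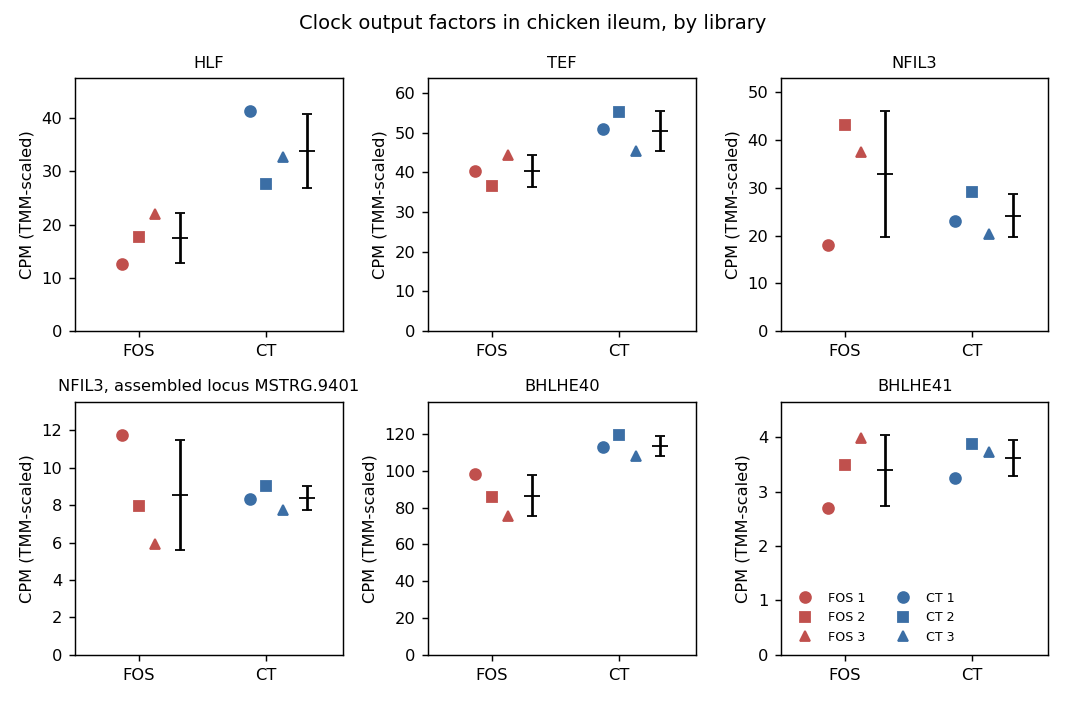
CPM of each clock output factor row in 3 FOS and 3 CT libraries, with symbols for the replicate number and a black bar for the mean ± SD. HLF, TEF and BHLHE40 do not overlap between groups, while both NFIL3 rows and BHLHE41 do.

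HLF (ENSGALG00000003059), an activator at D-boxes, stood at 12.6, 17.8 and 21.9 CPM in FOS 1 to 3, against 41.3, 27.6 and 32.6 CPM in CT 1 to 3. The counts behind these values were 187 to 391 in FOS and 478 to 687 in CT. FOS 1 was the lowest library and CT 1 the highest, and the gap between the groups lay between FOS 3 and CT 2. HLF averaged 17.4 ± 4.67 CPM in FOS and 33.8 ± 6.90 CPM in CT (SD, n = 3 each), a fold of 0.516 in FOS over CT. The log2 fold change was -0.95 (SE 0.24, 95% interval -1.51 to -0.40; edgeR adjusted p = 0.434). A more negative log2 fold change was found in 1.01% of all rows tested. DESeq2 gave a log2 fold change of -0.96 with an adjusted p of 0.0303, and an adjusted p of 0.0645 with the replicate number as a block, where HLF was no longer called. The same-numbered pairs gave ratios of 0.306, 0.643 and 0.672 of FOS over CT for numbers 1 to 3. Their direction adds nothing, since the groups did not overlap and any pairing would be lower in FOS.

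TEF (ENSGALG00000011958), the other PAR bZIP activator, stood at 40.2, 36.5 and 44.3 CPM in FOS 1 to 3, against 50.8, 55.1 and 45.3 CPM in CT 1 to 3. The groups were separated narrowly, with FOS 3 and CT 3 side by side. TEF averaged 40.3 ± 3.92 CPM in FOS and 50.4 ± 4.94 CPM in CT (SD, n = 3 each). Its log2 fold change was -0.32 (SE 0.13, 95% interval -0.62 to -0.02; edgeR adjusted p = 0.510). In the 4 libraries with W-linked transcripts alone it was -0.19. The same-numbered pairs gave ratios of 0.791, 0.662 and 0.979 of FOS over CT, so pair 3 showed almost equal levels.

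NFIL3 (ENSGALG00000015209), the repressor at D-boxes, stood at 18.1, 43.0 and 37.4 CPM in FOS 1 to 3, against 23.1, 29.1 and 20.3 CPM in CT 1 to 3. FOS 2 and FOS 3 were the highest libraries of all and FOS 1 the lowest, so the FOS group spanned the whole CT range. NFIL3 averaged 32.8 ± 13.1 CPM in FOS and 24.2 ± 4.51 CPM in CT (SD, n = 3 each). The log2 fold change was 0.44 (SE 0.31, 95% interval -0.29 to 1.17; edgeR adjusted p = 0.706). Single libraries weighed on this value: it was 0.74 without FOS 1, 0.21 without FOS 2 and 0.34 without FOS 3. It was 0.41 without CT 1, 0.60 without CT 2 and 0.33 without CT 3. NFIL3 lies on the Z chromosome, of which birds with a W chromosome carry a single copy. FOS 2 and CT 2, which lacked W-linked transcripts, were the highest NFIL3 libraries of their groups. FOS 3, which had these transcripts, exceeded every CT library. The Ensembl row averaged 36.1 CPM in the 2 libraries without W-linked transcripts and 24.7 CPM in the 4 with them. The assembled locus averaged 8.48 and 8.44 CPM in the same libraries. The part of Z copy number in these values was not tested. With W-linked transcripts as a covariate the log2 fold change was 0.43 (SE 0.27).

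The assembled locus MSTRG.9401, which the table annotates as a predicted chicken NFIL3, stood at 11.7, 7.94 and 5.95 CPM in FOS 1 to 3, against 8.35, 9.01 and 7.72 CPM in CT 1 to 3. FOS 1, the lowest library in the Ensembl row, was the highest in the locus. The mean CPM of the locus was 8.54 ± 2.94 in FOS and 8.36 ± 0.645 in CT (SD, n = 3 each), and its log2 fold change, with SE, was 0.03 ± 0.27 (edgeR adjusted p = 0.986). How reads were divided between both rows is not given in the sources used here. With both rows summed the NFIL3 log2 fold change was 0.35, below the 0.44 of the Ensembl row.

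BHLHE40 (ENSGALG00000008308), an E-box repressor, had the highest counts among the 6 rows, from 1232 to 2067. It stood at 98.3, 85.8 and 75.6 CPM in FOS 1 to 3, against 113, 119 and 108 CPM in CT 1 to 3. The CT libraries lay close together and every FOS library lay below them. BHLHE40 averaged 86.6 ± 11.3 CPM in FOS and 113 ± 5.63 CPM in CT (SD, n = 3 each). Its log2 fold change was -0.39 (SE 0.12, 95% interval -0.68 to -0.10; edgeR adjusted p = 0.479). The same-numbered pairs gave ratios of 0.871, 0.718 and 0.699 of FOS over CT, and any pairing of these groups would be lower in FOS.

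BHLHE41 (ENSGALG00000048539), its close relative, was the scarcest of the 5 genes, with 40 to 71 counts in FOS and 54 to 70 counts in CT. It stood at 2.70, 3.48 and 3.98 CPM in FOS 1 to 3, against 3.24, 3.87 and 3.73 CPM in CT 1 to 3. The FOS values enclosed the CT values. The log2 fold change was -0.09 (SE 0.27, 95% interval -0.71 to 0.53; edgeR adjusted p = 0.941), and it was 0.052 without FOS 1.

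Levels per transcript length, in FPKM (fragments scaled for transcript length and for library size), ordered the 5 genes in nearly the same way in each library. TEF was highest in all 6 libraries, at 37.9 ± 4.42 FPKM in FOS and 49.9 ± 4.86 FPKM in CT (SD, n = 3 each). BHLHE40 came next in all 6, at 30.5 ± 3.15 FPKM in FOS and 42.1 ± 1.34 FPKM in CT (SD, n = 3 each). HLF averaged 8.41 ± 2.47 FPKM in FOS and 17.1 ± 3.75 FPKM in CT, and NFIL3 averaged 7.77 ± 3.20 FPKM in FOS and 5.96 ± 0.987 FPKM in CT (SD, n = 3 each). In FOS libraries HLF and NFIL3 therefore did not differ beyond their spread, and in FOS 2 NFIL3 stood above HLF, while HLF was above NFIL3 in all CT libraries. These NFIL3 values are from the Ensembl row alone. BHLHE41 was last in all 6 libraries, at 2.24 ± 0.488 FPKM in FOS and 2.49 ± 0.199 FPKM in CT (SD, n = 3 each). The mean HLF level exceeded that of 43.0% of tested rows in FOS and of 62.5% in CT, while TEF exceeded 82.8% in FOS and 87.6% in CT.

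**Figure D2:**
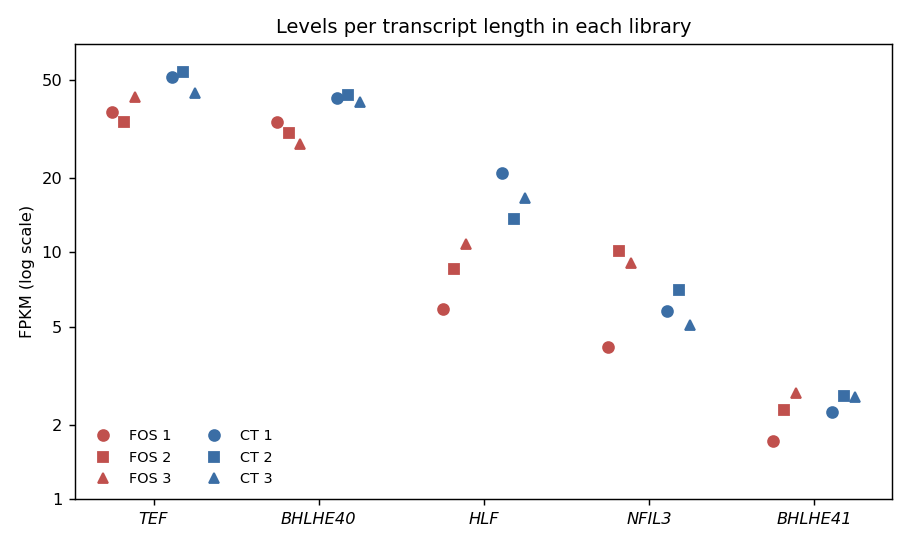
FPKM on a log axis for the 5 genes, with 3 FOS libraries left of 3 CT libraries for each gene. NFIL3 is shown by its Ensembl row. TEF and BHLHE40 lead in every library, and HLF and NFIL3 overlap in FOS but not in CT.

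The activators were also set against the Ensembl row of NFIL3, the repressor of their shared sites. The assembled locus was left out. It stood at 3.25, 2.27 and 1.74 FPKM in FOS 1 to 3. The CT 1 to 3 values were 2.53, 2.63 and 2.34 FPKM. The FPKM ratio of HLF to NFIL3 was 1.42, 0.842 and 1.20 in FOS 1 to 3, against 3.64, 1.94 and 3.28 in CT 1 to 3. These ratios did not overlap between groups: their log2 averaged 0.17 ± 0.39 in FOS and 1.51 ± 0.49 in CT (SD, n = 3 each). The FPKM ratio of TEF to NFIL3 was 9.02, 3.33 and 4.71 in FOS 1 to 3, against 8.87, 7.67 and 8.77 in CT 1 to 3. With the Ensembl row alone FOS 1 stood above all CT libraries in that ratio, and FOS 2 and FOS 3 stood below them. FOS 1 was the lowest library in this row and the highest in the locus, so its place depends on the row chosen. HLF made up 13.6% to 20.3% of the summed HLF and TEF FPKM in FOS libraries and 20.2% to 29.1% in CT libraries, so the ranges touched. No test was made on these ratios, which combine chosen genes, and ratios to both NFIL3 rows together were not made.

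**Figure D3:**
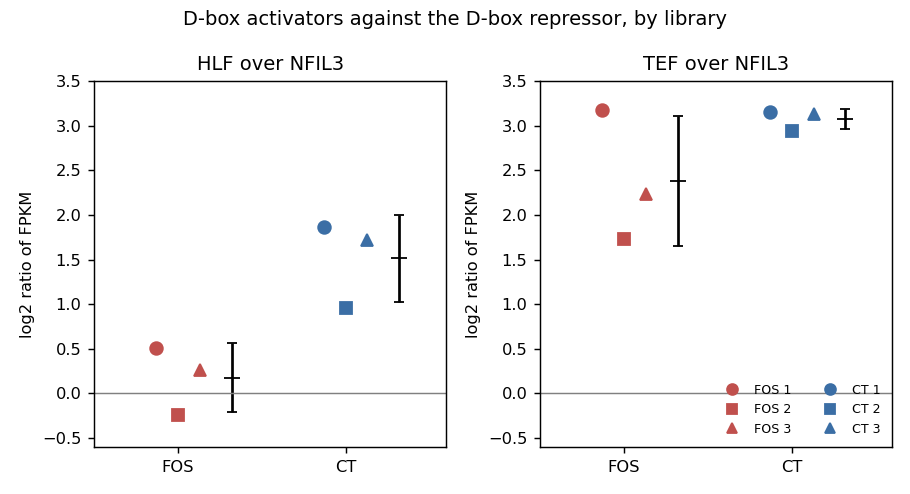
Log2 ratio of FPKM of HLF to NFIL3 and of TEF to NFIL3 (Ensembl row alone) in 3 FOS and 3 CT libraries, with the mean ± SD in black. The HLF ratio averages 0.17 in FOS and 1.51 in CT without overlap, while the TEF ratio overlaps, with FOS 1 above every CT library.

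Among the 5 genes, TEF and BHLHE40 had the smallest distance over the 6 libraries. Genes that vary little lie near each other on this measure, so it does not rank how closely genes rise and fall together. The root-mean-square spread of centred log2 CPM was 0.56 for HLF, 0.20 for TEF and 0.23 for BHLHE40. The root-mean-square difference of their centred log2 CPM was 0.17, and 9.47% of named genes with at least 1 CPM lay closer to TEF than BHLHE40 did. HLF and TEF differed by 0.44 log2 units on this measure, with 11.9% of named genes closer to HLF. NFIL3 and HLF differed by 0.76 log2 units, with 84.9% of named genes closer to HLF. Among all 11641 other named genes, the closest to HLF was SOX5, a transcription factor, at 0.083 log2 units. It was followed by LHFPL5 at 0.13 and TENM4, a teneurin, at 0.13. All 3 shared with HLF a low in FOS 1 and a high in CT 1. TENM4, which had the highest counts of them, stood at 9.18, 10.7 and 17.3 CPM in FOS 1 to 3 and at 25.5, 18.7 and 22.4 CPM in CT 1 to 3.

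For TEF the closest genes were BSN, a presynaptic scaffold protein, at 0.035 log2 units, LYPLAL1 at 0.042 and KLHL11 at 0.057. For NFIL3 they were RNF186, a RING finger protein on an assembled locus, at 0.090 log2 units, TRHDE at 0.13 and HAPLN3 at 0.14. RNF186 had the NFIL3 order within FOS, at 10.5, 27.8 and 26.0 CPM in FOS 1 to 3, against 15.7, 18.8 and 12.2 CPM in CT 1 to 3. For the NFIL3 locus CEP89, GTPBP3 and FOPNL were closest, at 0.045, 0.060 and 0.075 log2 units. For BHLHE40 they were TTC27, the small GTPase RAB31 and TMEM200A, at 0.059, 0.060 and 0.068 log2 units. For BHLHE41 they were AIDA, ARL15 and TNFAIP3, an inhibitor of NF-kappaB signalling, at 0.041, 0.044 and 0.048 log2 units. These neighbours were picked for matching a factor over the same 6 libraries, group difference included, so no test is given for them.

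The loop upstream of these factors was measured in the same libraries. Of 5 tested activators, edgeR called 1 higher, NPAS2, against 0.0217% of all rows. NPAS2 averaged 109 ± 10.5 CPM in FOS and 22.9 ± 3.30 CPM in CT (SD, n = 3 each; edgeR adjusted p = 0.00625). DESeq2 called 2 of the 5 higher, NPAS2 among them (DESeq2 adjusted p = 5.81e-36), against 0.777% of the rows it tested. Limma-voom called NPAS2 too (limma-voom adjusted p = 0.0101), against 0.00724% of rows. The edgeR call was lost without CT 1, without CT 3 and with the enterocyte level as a covariate. That level did not overlap between groups, so its fit cannot cleanly separate it from diet. ARNTL averaged 39.1 ± 4.55 CPM in FOS and 20.9 ± 1.42 CPM in CT (SD, n = 3 each; edgeR adjusted p = 0.263), and DESeq2 called it higher. RORA, which activates NFIL3 and ARNTL promoters in mammals, averaged 7.46 ± 2.30 CPM in FOS and 11.3 ± 1.31 CPM in CT (SD, n = 3 each; edgeR adjusted p = 0.542). CLOCK and ARNTL2 overlapped between groups, and RORB was below the filter. Among 8 repressors edgeR called 0, with 5 lower at an unadjusted p under 0.05, against 4.27% of all rows. DESeq2 called 4 lower, namely PER3, NR1D2, PER2 and NR1D1, against 0.325% of the rows it tested. NR1D1 and NR1D2 (REV-ERB alpha and beta), known repressors of NFIL3 in mammals, averaged 3.91 ± 1.25 and 52.0 ± 8.42 CPM in FOS, against 9.21 ± 1.42 and 116 ± 16.9 CPM in CT (SD, n = 3 each). CIART, a small repressor, had 5, 3 and 0 counts in FOS 1 to 3 and 21, 29 and 18 in CT 1 to 3. CRY1, CRY2 and CRY4 overlapped between groups. The median log2 fold change was -0.01 for activators and -1.20 for repressors, beside 0.01 for all rows tested. HLF, at -0.95, thus lay between TEF at -0.32 and the REV-ERB genes at -1.24 and -1.15.

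**Figure D4:**
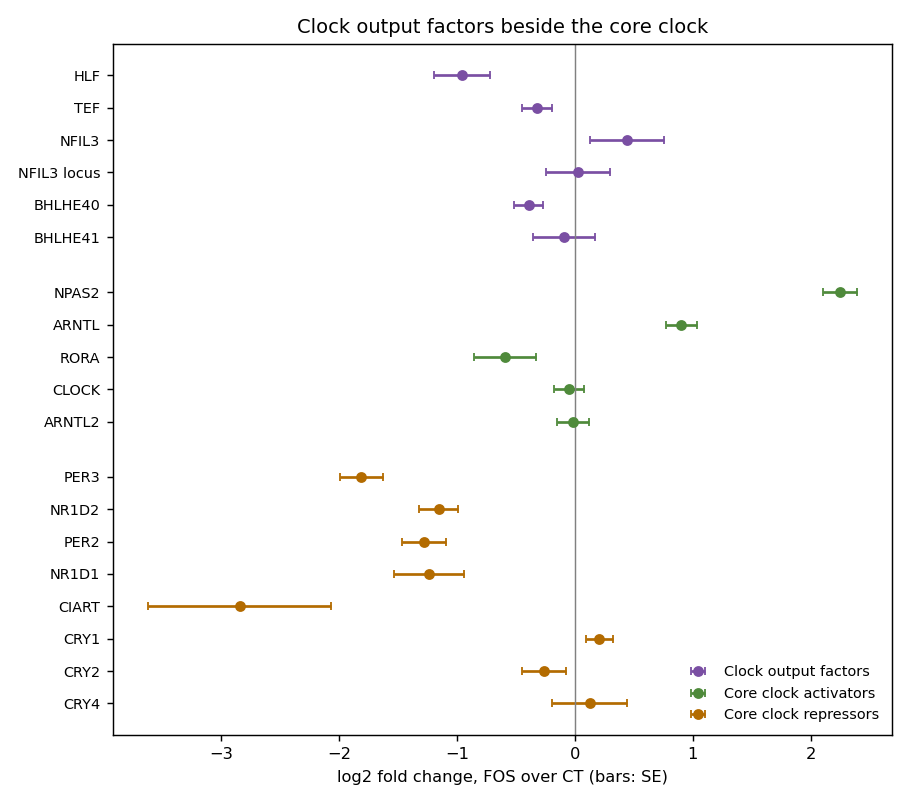
Log2 fold change of FOS over CT with SE for the clock output factors, 5 core clock activators and 8 core clock repressors. HLF sits at -0.95, NFIL3 at 0.44, NPAS2 at 2.25 and PER3 at -1.81.

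A list built on D-box targets known in mouse comes next. Its cytochrome rows carry chicken gene names, and whether D-box factors act on them in chicken was not tested. The row counted as ALAS1, its RefSeq name, carries the symbol ALAS2. Among 13 tested rows edgeR and DESeq2 called 0, and 3 were higher at an unadjusted p under 0.05: CYP2C23a, CYP2C23b and CYP3A5, cytochromes of drug metabolism. The shares of all rows at that level, 5.14% higher and 4.27% lower, are the background for each list below too. CYP2C23a stood at 1488, 1066 and 1031 CPM in FOS 1 to 3, against 264, 897 and 320 CPM in CT 1 to 3. The median log2 fold change of these rows was 0.03, and it ran from -0.28 with the smooth muscle covariate described below to 0.24 in libraries with W-linked transcripts. Without FOS 1 it was -0.12, with 0 higher and 3 lower at an unadjusted p under 0.05. CYP7A1 had 0 counts in all 6 libraries, which allows up to 0.209 CPM (3 counts) in FOS 2, the shallowest. PPARA, WEE1 and PDXK, other genes of the list, had log2 fold changes of -0.37, -0.24 and -0.30 (SE 0.20, 0.13 and 0.18) without passing. CYP3A4 and CYP2C18, also without passing, had 0.62 and 1.04 (SE 0.35 and 0.69). Of the 13 rows 7 had a positive log2 fold change and 6 a negative one. WEE1 and PPARA were also in a list of 12 clock-driven output genes, along with USP2 and NAMPT. USP2, to which DESeq2 gave no adjusted p, had 4 to 17 counts and a log2 fold change of 1.03 (SE 0.46). Its groups did not overlap, with FOS higher, against 8.58% of all rows. Of the 12 genes edgeR and DESeq2 called 0, with 0 at an unadjusted p under 0.05. The 7 genes of clock protein turnover and 5 bZIP relatives, among them CEBPB and ATF4, also had 0 on all 3 measures. No row was found under the symbol DBP, the third PAR bZIP gene of mammals, so it was not analysed here.

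In mouse, NFIL3 is tied to epithelial lipid genes and to innate lymphoid cells. Of 13 genes of lipid uptake and storage edgeR and DESeq2 called 0, and 1 was higher at an unadjusted p under 0.05, MOGAT2, an enzyme of triglyceride resynthesis. It averaged 73.4 ± 15.4 CPM in FOS and 50.2 ± 4.28 CPM in CT (SD, n = 3 each). SCD, which NFIL3 supports in mouse epithelium, averaged 15.0 ± 6.30 CPM in FOS and 35.2 ± 26.8 CPM in CT (SD, n = 3 each), and the groups overlapped. Of 10 regulators of innate lymphoid and NK cells, a lineage that needs NFIL3 in mouse, edgeR and DESeq2 called 0. ETS1 and IL2RB were lower at an unadjusted p under 0.05, and ETS1 averaged 82.4 ± 11.9 CPM in FOS and 120 ± 7.90 CPM in CT (SD, n = 3 each). The summed level of 11 rows of T and NK cell markers was 785 to 925 CPM in FOS and 958 to 1068 CPM in CT, and its part in these values was not tested. None of these rows marks NK cells alone. Of the 9 marker rows kept by the filter, 2 were lower at an unadjusted p under 0.05, against 4.27% of all rows. EdgeR called 0 of them and DESeq2 called 1 lower, against 0.325% of the rows it tested.

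BHLHE40 and BHLHE41 also respond to low oxygen in mammals. Of 16 hypoxia genes edgeR and DESeq2 called 0, and 1 was lower at an unadjusted p under 0.05, HIF1A, which encodes a hypoxia-inducible factor. HIF1A averaged 91.1 ± 3.08 CPM in FOS and 109 ± 1.97 CPM in CT (SD, n = 3 each), and its log2 fold change, with SE, was -0.26 ± 0.091 (edgeR adjusted p = 0.483). Of 12 glucocorticoid- and fasting-responsive genes edgeR called 0. DESeq2 called 1 lower, FKBP5, against 0.325% of the rows it tested. At an unadjusted p under 0.05, 1 was higher and 1 lower. FKBP5, a cochaperone of steroid receptors, stood at 31.6, 36.1 and 40.5 CPM in FOS 1 to 3, against 136, 57.0 and 65.3 CPM in CT 1 to 3. CT 1, the highest library for FKBP5, was also the highest for HLF. Of 10 immediate early genes edgeR and DESeq2 called 0, and MYC was higher at an unadjusted p under 0.05.

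Levels of tissue markers also varied between the libraries, in part alongside HLF. The log2 fold change was negative for all 10 smooth muscle genes, with a summed level of 4794 to 7871 CPM in FOS and 6819 to 9428 CPM in CT. Of 13 enterocyte rows 11 had a positive one, with a summed level of 20975 to 28344 CPM in FOS and 16992 to 21255 CPM in CT. It was below 0 in 48.9% of all rows. At an unadjusted p under 0.05, 6 enterocyte rows were higher and 1 lower, against 5.14% and 4.27% of all rows, and 0 smooth muscle genes passed. FABP6, the ileal bile acid carrier in the enterocyte list, went the other way from most of it, with the lower mean in FOS given above. The groups did not overlap in 4 higher and 1 lower enterocyte rows, against 8.58% and 7.84% of all rows. EdgeR called 0 in both lists, and DESeq2 called 1 enterocyte row higher, against 0.777% of the rows it tested. None of these marker rows was at 0 in all libraries. FOS 1 had the lowest mean log2 CPM of smooth muscle genes, at 8.38 against 8.91 and 9.10 in FOS 2 and FOS 3, and the lowest HLF. CT 1, CT 2 and CT 3 stood at 9.26, 8.90 and 9.35, and CT 2 was also the lowest CT library in HLF. The orders differed elsewhere: CT 2 lay below FOS 2 and FOS 3 in smooth muscle level but above both in HLF, and CT 3 had the highest smooth muscle level while CT 1 had the highest HLF. The enterocyte level ran the other way, at 9.67, 8.88 and 8.89 in FOS 1 to 3, against 8.55, 8.80 and 8.48 in CT 1 to 3. It did not overlap between groups, so a fit with it as a covariate cannot cleanly separate it from diet. Without FOS 1 the HLF log2 fold change was -0.76. With the smooth muscle level as a covariate, an alternative chosen after the data were seen, it was -0.61 (SE 0.18), and with the enterocyte level -0.50 (SE 0.23), while BHLHE40 gave -0.56 (SE 0.11) and -0.59 (SE 0.13). NFIL3 gave 0.65 and 0.91 in these fits (SE 0.34 and 0.32; edgeR adjusted p = 0.838 and 0.633). In whole ileum, fewer cells of a type and less RNA per cell cannot be told apart.

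Apart from the T and NK cell markers given above, the other marker lists overlapped between groups in summed level. Matrix genes stood at 3786 to 5663 CPM in FOS and 5274 to 5510 CPM in CT, and enteric neuron and glia genes at 83.6 to 135 CPM in FOS and 125 to 146 CPM in CT. For B and plasma cells the range was 1736 to 4124 CPM in FOS and 2865 to 3319 CPM in CT, and for macrophages and dendritic cells it was 4344 to 11297 CPM in FOS and 8989 to 9879 CPM in CT. FOS 1 was the lowest library in all 4 of these sums. EdgeR and DESeq2 called 0 genes of these 4 lists. Of 9 matrix genes 8 had a negative log2 fold change, and 4 were lower at an unadjusted p under 0.05, against 4.27% of all rows. Their groups did not overlap in 5, all lower in FOS, against 7.84% of all rows. Without FOS 1, 1 matrix gene was lower and 1 higher at that p. Of 10 neuron and glia genes 1 was higher at that p, and the B cell and macrophage lists had 0. The labels give no time of day of sampling for either group, so sampling time and diet cannot be told apart for rhythmic genes.

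**Figure D5:**
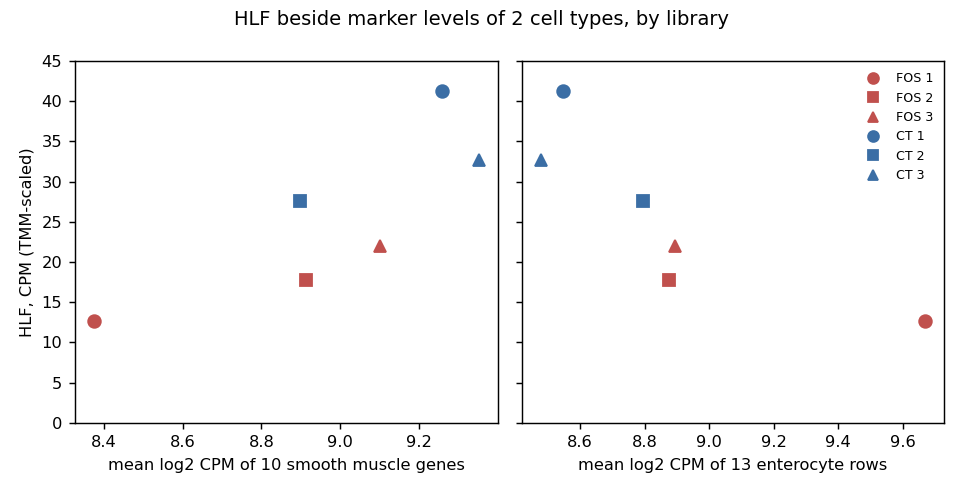
HLF in CPM against the mean log2 CPM of 10 smooth muscle genes (left) and of 13 enterocyte rows (right), 1 point per library. FOS 1 has the lowest HLF, the lowest smooth muscle level of 8.38 and the highest enterocyte level of 9.67.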

How the data were processed

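The authors deposited a table of 17623 rows with expected counts (estimates, often fractional) and also FPKM for each library. Per the submitters' processing notes, fastp 0.18.0, Bowtie2, HISAT2, StringTie and DESeq2 were used, with no roles. Neither build nor counter is given in the sources used here, and coordinates are left out. Per the labels' protocols, TRIzol was used for total RNA; a small RNA kit is listed for library construction. The table's 12 value columns of samples not described were not used. Of the count values 8.06% were not whole, and counts were rounded. Rows were kept by filterByExpr, scaled by TMM and compared by the quasi-likelihood test in edgeR 4.0.16 (R 4.3.3), with no covariate. P-values were adjusted by Benjamini-Hochberg over 13807 rows, at a threshold of 0.05. The script was run on counts simulated with edgeR's own dispersions, which checked mean log2 fold changes and not false or missed calls. SE is the log2 fold change over the root of F. DESeq2 1.42.0 and limma 3.58.1 were alternatives. FPKM served for levels across genes.

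Named genes were the 5 factors, the 3 genes nearest to each row by root-mean-square difference of centred log2 CPM (prior count 2, mean of at least 1 CPM), the measured core clock genes, and up to 4 genes of each other list by unadjusted p. PDXK, NAMPT, CEBPB, ATF4 and other genes that the rule does not cover were picked with their values in view. The factors and lists were chosen with earlier results of these data known, and 1 listed gene is not reported here. Names of unnamed rows came from RefSeq gene names (GRCg7b) through NCBI gene IDs; 13650 of 13969 gene IDs matched. The correlation of deviations from the group mean was 0.240, 0.388 and 0.198 in pairs 1, 2 and 3. All exceeded 0.1, so the numbers from the sample titles met the bar for pairs, though no label says what a number marks. Between different numbers the correlation was -0.309 to 0.0652. Deviations cancel out within a group, so these values are not independent of those for the same number. The main fit has no block, and fits with one are given as alternatives. Pair 2 holds the libraries without W-linked transcripts, and the part of this in its correlation was not tested. Limits from a count of 0 cover counting error only.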

Additional observations from a re-analysis of the deposited data

How the results depend on the processing

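HLF, TEF and BHLHE40 were lower and NFIL3 higher in FOS under every alternative run, 22 for each and 23 for NFIL3. The alternatives reuse the same 6 libraries, so a shared direction is not separate evidence. Over these the log2 fold change was -1.15 to -0.50 for HLF, -0.40 to -0.19 for TEF, -0.59 to -0.29 for BHLHE40 and 0.21 to 0.91 for NFIL3. HLF passed with DESeq2 alone (log2 fold change -0.96, adjusted p = 0.0303; 0.0303 to 0.885 over all alternatives). Leaving out 1 library in turn gave -1.15 to -0.76 for HLF, -0.39 to -0.25 for TEF, 0.21 to 0.74 for NFIL3, -0.49 to -0.29 for BHLHE40 and -0.22 to 0.052 for BHLHE41, which was 0.052 without FOS 1. With the smooth muscle and enterocyte covariates, both added after the data were seen, BHLHE41 was 0.053 and 0.14. The NFIL3 locus, at 0.03, turned to -0.0031 with upper-quartile factors, -0.042 without the 20 most abundant genes, -0.039 with limma-voom, -0.056 and -0.087 on log2(FPKM + 1) and log2(FPKM + 0.1), and -0.020 with the replicate number as a block in edgeR and in DESeq2. It was -0.41 and -0.51 with the 2 covariates and -0.26 to 0.24 when 1 library was left out. The cause was not tested.

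EdgeR called 3 genes in all; DESeq2 called 149, or 115 with the replicate block, limma-voom 1, the enterocyte covariate 0, and leaving out 1 library 0 to 4 (0 without CT 1, 1 without CT 2, 0 without CT 3). The replicate block in edgeR gave -0.96 for HLF (adjusted p = 0.472), and of the adjusted calls on the 5 genes the block changed that of HLF with DESeq2 and no other. NPAS2 was among the edgeR calls lost without CT 1, without CT 3 and with the enterocyte covariate, whose values did not overlap between groups.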
